A study of Homo sapiens with 6 samples.

Results

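G3BP2 and 9 other genes of stress granule proteins were described in the RNA-seq data of PANC-1 cells, a line established from a human pancreatic ductal adenocarcinoma. The 10 genes were G3BP1, G3BP2, CAPRIN1, USP10, TIA1, TIAL1, UBAP2L, ATXN2, ATXN2L and PABPC1, out of 30735 genes in each file, and they were found by matching gene symbols to the Ensembl identifiers. They were chosen by what their proteins do and by a measured value, since G3BP2 was singled out with its levels in these same samples already known, so the differences between the groups are given for these genes as a description, and counts of them in the fit across all genes stand beside the share of all genes without being read as a result. The study asked which transcripts lie downstream of CD73, the cell surface enzyme encoded by NT5E that turns AMP into adenosine. All cells were PANC-1 grown in DMEM with fetal bovine serum and transfected in serum-free medium with a Lipofectamine reagent, 3 samples with CD73 siRNA and 3 with a negative control, and the labels number the samples of each group from 1 to 3. No untransfected cells, second cell line or second time point was analysed here, and the sources do not say whether the 3 knockdown samples received different siRNA sequences.

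Stress granules are cytoplasmic assemblies of RNA and protein that form when translation initiation stalls, most often after the initiation factor eIF2 has been phosphorylated by a stress-activated kinase. The paralogs G3BP1 and G3BP2 are RNA-binding proteins that act as the scaffold of these assemblies. CAPRIN1 and USP10 bind the same domain of the G3BP proteins, where CAPRIN1 favours assembly and USP10, a deubiquitinase, opposes it. UBAP2L, ATXN2 and ATXN2L are further RNA-associated proteins of the granule, TIA1 and its paralog TIAL1 carry a prion-like domain, and PABPC1, the cytoplasmic poly(A)-binding protein, is brought in with the stalled mRNA. Assembly is mainly controlled through proteins that are already present, and the values below are mRNA levels, with no image of granules beside them.

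The values are read here as RPKM, reads scaled to the exon length of the gene and to the size of the library, so that levels can be compared between genes per length. The library totals implied by the values were 15009113 to 16836208 reads. NT5E, the target of the siRNA, stood at 3.36, 6.85 and 8.22 RPKM in CD73 siRNA replicates 1, 2 and 3 and at 14.0, 13.9 and 17.1 RPKM in the negative controls. All 3 knockdown samples were below all 3 controls, with a mean of 41.0% of the control mean and a limma adjusted p of 0.303. GAPDH, a glycolytic enzyme, differed by -0.01 on the log2(RPKM + 1) scale. Of the epithelial markers, KRT7 was under 1 RPKM in all 6 samples, and the summed level of all 6 epithelial markers was 71.4 to 102 RPKM after CD73 siRNA and 136 to 254 RPKM in the controls, so it moved with the groups, and its part in the differences below was not tested. Of the fibroblast markers 1 of 4 measured reached 1 RPKM in all samples (sum 9.01 to 16.3 RPKM after CD73 siRNA and 10.6 to 19.2 RPKM in the controls), while PTPRC, CD68, LST1, PECAM1, VWF and CDH5, which mark leukocytes and endothelium, were under 1 RPKM throughout.

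G3BP1 and G3BP2 encode similar proteins from separate chromosomes, and their sequences are shown first because the main contrast of these data lies between them. In GENCODE release 29 (GRCh38), G3BP2 (ENSG00000138757) lies on the reverse strand of chromosome 4 from 75642782 to 75724525, with 19 transcripts and 7183 bases of merged exon. G3BP1 (ENSG00000145907) lies on chromosome 5 from 151771045 to 151812785, forward strand, with 14 transcripts and 12406 bases of merged exon. Its span overlaps ATOX1 and AC091982.3 on the opposite strand, and where strand was not used in counting the reads of such genes cannot be told apart. The coding sequence of G3BP1 has 1401 bases and that of G3BP2 has 1449 bases. Aligned to each other, 938 of 1363 aligned bases were identical, or 68.8%. The longest identical run was 17 bases, from base 373 to base 389 of both coding sequences, and it is shown in capitals with 5 coding bases on each side.
G3BP1: aattcTATGTTCACAATGATATcttca
G3BP2: aatttTATGTTCACAATGATATgtttc
No stretch of 50 bases was shared between the transcripts of the paralogs, so a read of that length with no mismatch could not be assigned to the wrong one of the pair. Of all 50-base stretches, 1.302% of those of G3BP2 and 1.08% of those of G3BP1 also occurred in transcripts of some other gene. For G3BP2 these were 419 genes, with GTPBP10 sharing the most, and for G3BP1 7 genes, mostly ATOX1. The span of G3BP2 overlaps RF00019 on the same strand.

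RefSeq (GRCh38.p14) gives 1 start window for G3BP1 and 5 for G3BP2, each of 250 bases before and 50 bases after the start of transcription. The gene-level values do not tell which of the G3BP2 starts was used. The G3BP1 window and one of the G3BP2 windows, the first listed, are shown so that the paralogs can be compared, with motif matches in capitals. For G3BP1 the capitals mark CCAAT, found on either strand, and for G3BP2 they mark CGGAAG (the core of ETS factor sites), GGGCGG (the GC box) and a match to the NF-kB site, with no overlap among them.
G3BP1, chr5:151771704-151772003, forward strand: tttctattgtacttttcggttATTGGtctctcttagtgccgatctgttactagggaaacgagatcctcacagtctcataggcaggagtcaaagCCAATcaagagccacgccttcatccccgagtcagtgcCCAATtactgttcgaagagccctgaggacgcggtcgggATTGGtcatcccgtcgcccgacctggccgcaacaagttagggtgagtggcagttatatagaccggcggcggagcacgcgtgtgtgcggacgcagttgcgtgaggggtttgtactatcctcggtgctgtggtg
G3BP2, chr4:75673108-75673407, reverse strand: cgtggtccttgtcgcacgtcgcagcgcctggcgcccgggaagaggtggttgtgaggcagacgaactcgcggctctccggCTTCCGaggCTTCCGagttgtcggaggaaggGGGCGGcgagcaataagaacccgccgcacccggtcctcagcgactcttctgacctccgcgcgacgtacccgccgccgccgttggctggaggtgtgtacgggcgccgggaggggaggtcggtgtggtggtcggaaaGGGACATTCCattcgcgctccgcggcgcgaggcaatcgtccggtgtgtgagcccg
The G3BP1 window held 4 CCAAT matches, at -229, -157, -120 and -82 from the start. Among 35116 RefSeq windows of this length, 34.6% held CCAAT at least once and 0.99% held at least 4. The G3BP2 window held CGGAAG at -171 and -162, GGGCGG at -140 and the NF-kB match at -5, motifs that occurred in 19.5%, 45.0% and 11.3% of all windows. The TATA box (TATAAA, in 11.5% of all windows), the E-box (CACGTG, 7.3%), the cAMP response element half-site (TGACG, 24.6%) and the AP-1 site (TGANTCA, 7.7%) were also searched on both strands, with no match in either window shown. The GC content was 55.0% for G3BP1 and 69.0% for G3BP2, with a median of 58.7% over all windows. The other G3BP2 windows held partly other motifs. GGGCGG, also marked in the window shown, occurred once in each of 2 of them, at -100 and -29. CCAAT occurred in 2 windows that overlap, at the same site. CACGTG occurred once in another. In the window with a GC content of 55.7%, TGACG matched at -53 and -50, on opposite strands of a single stretch, TGACGTCA. Neither CGGAAG nor the NF-kB match occurred in any of these 4. What is shown is therefore a contrast with a single G3BP2 start. These matches are letters in a window, and no binding was measured.

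G3BP2 mRNA was present at 46.4, 36.3 and 43.2 RPKM in CD73 siRNA replicates 1, 2 and 3 and at 15.6, 20.8 and 23.0 RPKM in the negative controls of the same numbers. Every knockdown sample was above every control, and the lowest knockdown value, in replicate 2, was still well above the highest control value. The mean was 42.0 ± 5.15 RPKM (SD, n = 3) after CD73 siRNA and 19.8 ± 3.81 RPKM (SD, n = 3) in the controls, a ratio of 2.12. On the log2(RPKM + 1) scale the difference was 1.06 with a standard error of 0.16, the 19th highest of the 12527 genes that passed the filter on low values (1 RPKM or more in 3 or more samples). Within replicate numbers it was 1.51, 0.77 and 0.88. The difference was widest in replicate 1, which had both the highest knockdown value and the lowest control value. Between 1797 and 5358 reads stood behind these values, so counting alone gave a standard error of 0.021 on the log2 scale, far below the spread between samples. The coefficient of variation was 12.3% among the knockdown samples and 19.2% among the controls. In bulk RNA, more transcript in every cell and more transcript in a share of the cells cannot be told apart.

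G3BP1 was at 21.1, 22.5 and 22.9 RPKM after CD73 siRNA and at 26.4, 23.1 and 28.6 RPKM in the controls. The knockdown samples were all below the controls, but only just, since knockdown replicate 3 and control replicate 2 nearly met. The means were 22.1 ± 0.96 and 26.0 ± 2.81 RPKM (SD, n = 3), a ratio of 0.850, and the log2 difference was -0.22 with a standard error of 0.11. Within replicate numbers it was -0.31, -0.03 and -0.31. The paralog with the same role in granule assembly therefore differed in the other direction from G3BP2 in all 3 pairs, with almost no difference in replicate 2.

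The balance between the paralogs lay on different sides in the groups. G3BP2 divided by G3BP1, in RPKM, was 2.204, 1.61 and 1.89 after CD73 siRNA and 0.590, 0.904 and 0.803 in the controls. G3BP2 was thus the higher paralog per length in every knockdown sample and the lower one in every control. On the log2(RPKM + 1) scale the gap between the paralogs averaged 0.89 ± 0.22 after CD73 siRNA and -0.39 ± 0.30 in the controls (SD, n = 3), which differ by 1.28, and by 1.83, 0.81 and 1.19 within replicate numbers. The share of G3BP2 in the summed RPKM of both was 65.3 ± 3.52% against 43.0 ± 5.33% (SD, n = 3), with no overlap between the groups. The sum itself was 67.5, 58.8 and 66.0 RPKM after CD73 siRNA and 42.0, 43.9 and 51.7 RPKM in the controls. The lower G3BP1 level did not offset the higher G3BP2 level, and the mean sum was 1.40 times that of the controls. The side on which the balance falls depends on the gene lengths, which are merged over all annotated transcripts. In reads, without division by length, G3BP2 to G3BP1 was 1.28, 0.935 and 1.09 after CD73 siRNA and 0.342, 0.523 and 0.465 in the controls, so the ratio between the groups was the same but knockdown replicate 2 had fewer reads of G3BP2 than of G3BP1.

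**Figure D1:**
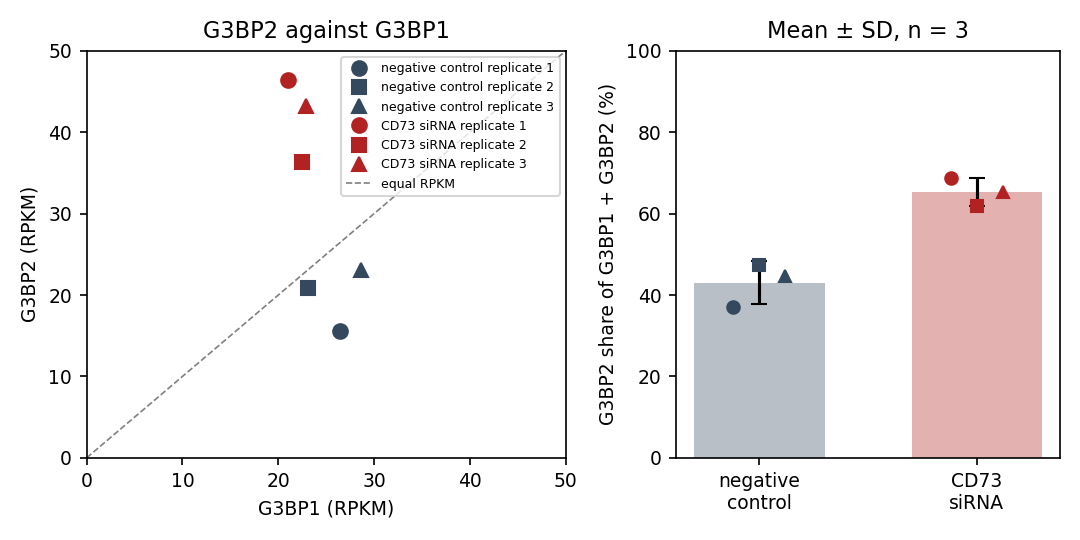
Left, the level of G3BP2 (y axis, RPKM) against that of G3BP1 (x axis, RPKM) in each of the 6 samples, with a dashed line where both are equal. Right, the share of G3BP2 in the summed RPKM of both paralogs (y axis, percent), with bars for the mean, error bars for the SD (n = 3) and points for the samples. The 3 CD73 siRNA samples lie above the line of equal RPKM and the 3 controls below it, and the mean share was 65.3% after CD73 siRNA and 43.0% in the controls.

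The partners that bind the G3BP proteins were not alike. USP10 (ENSG00000103194, chromosome 16 from 84699978 to 84779922, forward strand) was at 22.4, 29.8 and 26.5 RPKM after CD73 siRNA and at 37.0, 35.8 and 33.7 RPKM in the controls. All knockdown values were below all control values, with the lowest in knockdown replicate 1. The means were 26.2 ± 3.70 and 35.5 ± 1.68 RPKM (SD, n = 3), a ratio of 0.740, and the log2 difference was -0.43 with a standard error of 0.12, at -0.70, -0.25 and -0.33 within replicate numbers. This was the 400th lowest difference of the 12527 genes. USP10 shared 8.45% of its 50-base stretches with transcripts of other genes, among them CR383656.1, so its level is less certain than that of G3BP2. CAPRIN1 (ENSG00000135387, chromosome 11 from 34051683 to 34101156, forward strand) was at 82.7, 69.6 and 75.6 RPKM after CD73 siRNA and at 77.7, 68.8 and 75.8 RPKM in the controls. Its groups overlapped, with means of 76.0 ± 6.56 and 74.1 ± 4.70 RPKM (SD, n = 3) and a log2 difference of 0.03 with a standard error of 0.10. None of the 50-base stretches of CAPRIN1 was shared with another gene.

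The RNA-binding paralogs TIA1 and TIAL1 also separated from each other. TIAL1 (ENSG00000151923, chromosome 10 from 119571802 to 119597029, reverse strand) was at 21.7, 21.9 and 22.7 RPKM after CD73 siRNA and at 26.2, 25.3 and 27.2 RPKM in the controls. The groups did not overlap and each was tight, with means of 22.1 ± 0.55 and 26.3 ± 0.95 RPKM (SD, n = 3), a ratio of 0.841. The log2 difference was -0.24 with a standard error of 0.09 and was nearly equal in the replicates, at -0.26, -0.21 and -0.25. TIA1 (ENSG00000116001, chromosome 2 from 70209444 to 70248660, reverse strand) was at 16.6, 14.7 and 13.0 RPKM after CD73 siRNA and at 16.4, 12.9 and 13.5 RPKM in the controls. Its groups overlapped almost fully and the log2 difference was 0.04 with a standard error of 0.13.

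The granule proteins UBAP2L, ATXN2 and ATXN2L each had similar levels in the groups. UBAP2L (ENSG00000143569, chromosome 1 from 154220179 to 154271510, forward strand) was at 28.3, 27.6 and 30.9 RPKM after CD73 siRNA and at 28.6, 26.6 and 29.9 RPKM in the controls. ATXN2 (ENSG00000204842, chromosome 12 from 111443485 to 111599676, reverse strand) was at 5.70, 6.26 and 6.14 RPKM against 5.78, 6.04 and 6.07 RPKM. ATXN2L (ENSG00000168488, chromosome 16 from 28823035 to 28837237, forward strand) was at 44.9, 48.5 and 52.5 RPKM against 48.6, 49.96 and 44.0 RPKM. The groups overlapped for each of these genes, and the log2 differences were 0.03, 0.01 and 0.03 with standard errors of 0.10, 0.10 and 0.10. ATXN2L shared 9.66% of its 50-base stretches with transcripts of other genes, the highest of the 10, and ATXN2 overlaps SH2B3 and an antisense gene, ATXN2-AS. PABPC1 (ENSG00000070756), on the reverse strand of chromosome 8, was by far the most abundant of the 10 transcripts. It was at 363, 307 and 391 RPKM after CD73 siRNA and at 371, 325 and 405 RPKM in the controls. In both groups replicate 2 was lowest and replicate 3 highest, and the groups overlapped. Each knockdown sample was slightly below the control of the same number, by 0.03, 0.08 and 0.05 on the log2 scale. PABPC1 shared 7.45% of its 50-base stretches with other genes, PABPC3 and a pseudogene among them.

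**Figure D2:**
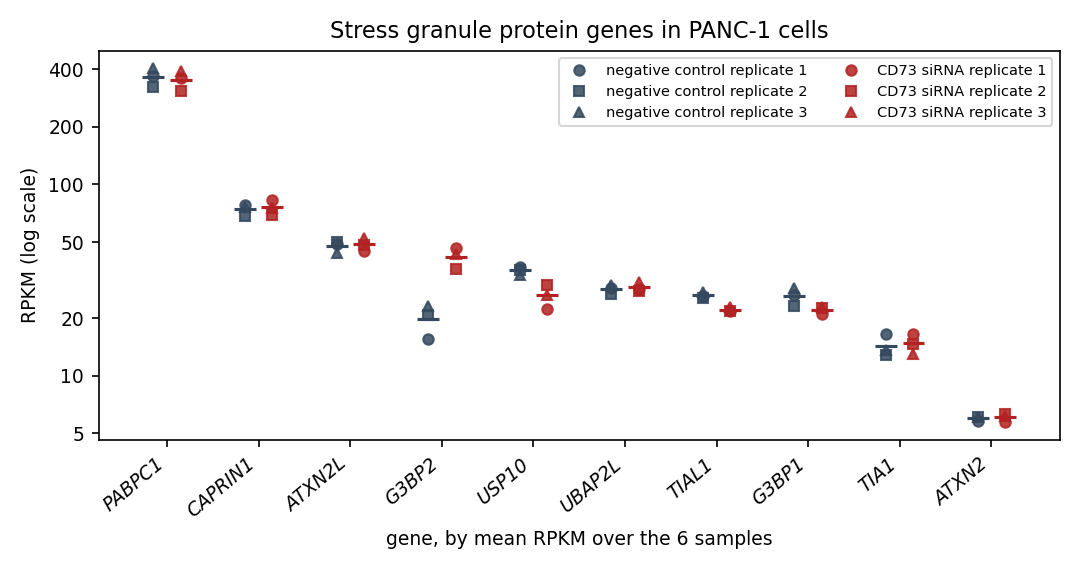
Level of the 10 stress granule protein genes (y axis, RPKM on a log scale) in each sample, ordered from left to right by the mean over the 6 samples (x axis). Points are samples, shaped by replicate number, and short lines are the means of the 3 samples of a group. G3BP2 stands at 15.6 to 23.0 RPKM in the controls and at 36.3 to 46.4 RPKM after CD73 siRNA, while the other genes keep to smaller differences.

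Set side by side, 1 of the 10 genes was higher without overlap after CD73 siRNA (G3BP2), 3 were lower without overlap (USP10, TIAL1 and G3BP1) and 6 overlapped. Among all 12527 genes tested, 10.3% were higher and 8.07% were lower without overlap. In the limma fit across all genes, with an unadjusted p below 0.01, G3BP2 was called higher and USP10 was called lower, and the call of USP10 was lost when CD73 siRNA replicate 1 or 3 or any one of the 3 controls was left out. Of all genes tested, 1.82% were called higher and 1.31% lower by this rule, and 4.27% and 3.3% when the fit took pairs of replicates as a block, with the same 2 of the 10 genes called. None of the 10 genes had a limma adjusted p below 0.05, with 3 of them at an unadjusted p below 0.05, which 12.1% of all genes passed. The adjusted threshold was passed by 1 gene of all those tested, a Y RNA gene named here after its value was seen, or 0.00798%. The 10 genes were chosen with values of this contrast known, and nothing is read from these counts.

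Most of the 10 genes differed little between the groups. For 6 of them the log2 difference lay within 0.1 of 0, as it did for 38.2% of all genes tested, and their median difference was 0.02, against 0.01 over all genes. All 3 pairs were higher for G3BP2 and lower for G3BP1, USP10, TIAL1 and PABPC1. Over all genes tested, the 3 pairs were all higher for 27.0% of the genes and lower for 24.5%. G3BP2 also stood higher relative to its partners after CD73 siRNA. Relative to the mean of the other 9 genes its log2 level was 0.32 ± 0.17 after CD73 siRNA and -0.82 ± 0.31 in the controls (SD, n = 3), which differ by 1.14. Taken against single partners, the difference was widest against USP10, at 1.48, and between 1.01 and 1.29 against TIA1, CAPRIN1, ATXN2L, UBAP2L, ATXN2, PABPC1, G3BP1 and TIAL1.

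**Figure D3:**
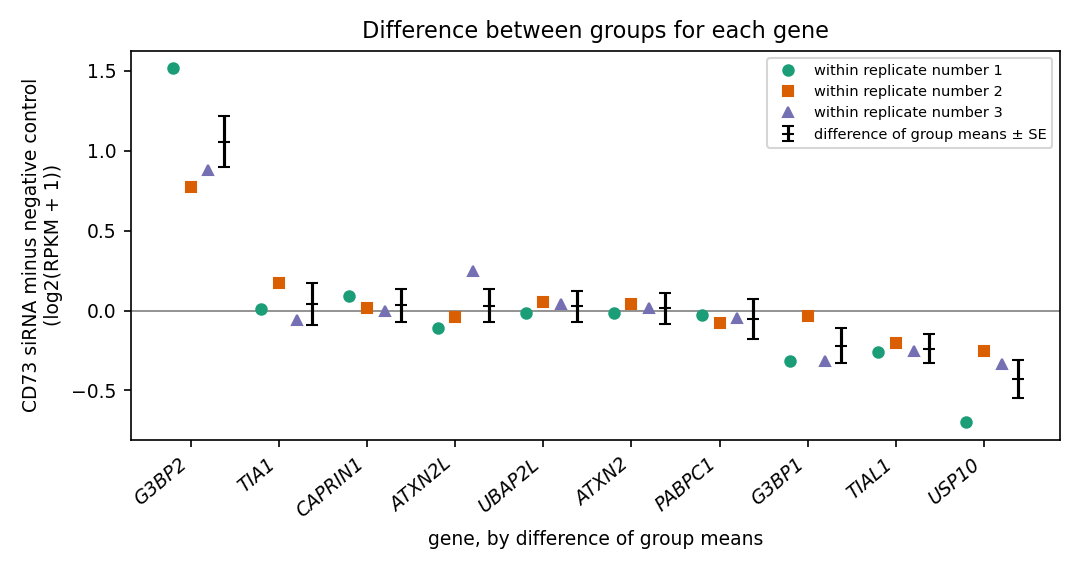
CD73 siRNA minus negative control for each of the 10 genes (y axis, difference of log2(RPKM + 1)), ordered by the difference of the group means (x axis). Coloured points are the differences within replicate numbers 1, 2 and 3, and the black mark is the difference of the group means with its standard error. G3BP2 stands apart at 1.06, most genes lie near 0, and G3BP1, TIAL1 and USP10 lie at -0.22, -0.24 and -0.43.

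The genes were also ordered by level. By mean RPKM over the 6 samples the order was PABPC1, CAPRIN1, ATXN2L, G3BP2, USP10, UBAP2L, TIAL1, G3BP1, TIA1 and ATXN2. Neighbours other than G3BP2, whose levels chose it, were compared within samples with an exact sign-flip permutation test (two-sided, n = 6, smallest possible p 0.03125), adjusted over all neighbouring pairs, those of G3BP2 included. In 5 pairs the order was the same in 6 of 6 samples. On the scale of log2 RPKM, with nothing added, PABPC1 was above CAPRIN1 by 2.26 and CAPRIN1 above ATXN2L by 0.64. UBAP2L was above TIAL1 by 0.25, G3BP1 above TIA1 by 0.73 and TIA1 above ATXN2 by 1.27. Each of these pairs had an exact p of 0.03125 and an adjusted p of 0.05625, so no pair was below 0.05 after adjustment. USP10 was above UBAP2L in 4 of 6 samples (exact p = 0.531, adjusted 0.683) and TIAL1 above G3BP1 in 2 of 6 (exact p = 0.844, also after adjustment), so these neighbours were not separated beyond their spread. As a description, ATXN2L was above G3BP2 in 5 of 6 samples and G3BP2 above USP10 in 3 of 6. The place of G3BP2 depended on the group: it ranked 9th, 8th and 8th of the 10 in control replicates 1, 2 and 3 and 3rd, 4th and 4th in the knockdown samples. PABPC1, CAPRIN1 and ATXN2 held ranks 1, 2 and 10 in all 6 samples. This order is per length and depends on the gene lengths, which are merged over all annotated transcripts. Without division by length, ATXN2 had about 1504 to 1706 reads and TIA1 1322 to 1762, so these overlapped. G3BP1 had 4199 to 5334 reads and TIAL1 2530 to 3095. The other pairs of the 5 kept their order in reads.

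Among the genes whose levels were most like G3BP2 over the 6 samples were MAP3K2, LPCAT1, SEC11C and PAF1. They are among the 5 with the highest Pearson r on log2(RPKM + 1) among 7393 tested genes with a mean of at least 5 RPKM, at r = 0.994, 0.992, 0.990 and 0.989. With 6 samples in 2 groups many genes reach such values, 279 of them above 0.9 and 96 above 0.95, so this is a description of shared profiles across the same libraries. These genes differed less between the groups than G3BP2, with log2 differences from 0.28 for SEC11C, a subunit of the signal peptidase, to 0.52 for LPCAT1, a lysophospholipid acyltransferase, with MAP3K2, a MAP kinase kinase kinase, at 0.44 and PAF1, a transcription elongation factor, at 0.36.

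Genes of the same processes were taken from lists set by function, which were chosen with earlier results of these data known. The lists were further stress granule proteins, P-body genes, the integrated stress response, cap-binding and initiation factors, and the paralogs of the 10 genes. The integrated stress response acts through eIF2 phosphorylation. Of 126 listed genes in the files, 124 passed the filter, and 3 were called higher and 1 lower at an unadjusted p below 0.01, against 1.82% and 1.31% of all genes. The number of these calls moved when single samples were left out. It was 0 without CD73 siRNA replicate 1 or negative control replicate 1, and 8 without negative control replicate 2. It was 1 without CD73 siRNA replicate 2 or 3 or negative control replicate 3. Calls over all genes moved too, from 392 with all samples. They were 110 without CD73 siRNA replicate 1, 181 without negative control replicate 1 and 791 without negative control replicate 2. In the other cases they were 254 to 309, and the cause was not tested. None of the 124 genes had a limma adjusted p below 0.05, and 11 had an unadjusted p below 0.05, against 12.1% of all genes. The median log2 difference over the 124 genes was 0.01, as over all genes, and the values ran from -0.48 to 0.65, so none reached that of G3BP2. Groups did not overlap for 11 genes that were higher and 9 that were lower, against 10.3% and 8.07% of all genes.

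Of the 45 further stress granule proteins, FXR2 was called higher and SERBP1 lower, with a median difference of 0.04. FXR2, a paralog of the fragile X protein, was at 20.3, 20.3 and 20.5 RPKM after CD73 siRNA and at 15.01, 16.7 and 15.6 RPKM in the controls, a log2 difference of 0.35 with a limma adjusted p of 0.303. SERBP1, a ribosome-associated RNA-binding protein, was at 60.2, 73.9 and 76.7 RPKM against 90.9, 92.0 and 94.7 RPKM, a log2 difference of -0.40 with a limma adjusted p of 0.305. Both genes had tight values in one group, and the other 43 granule genes did not pass. Of the 21 P-body genes, EDC3, an enhancer of mRNA decapping, was called higher, at 7.12, 7.74 and 7.84 RPKM against 4.61, 5.88 and 5.55 RPKM (log2 difference 0.44, limma adjusted p 0.303). The median of the P-body genes was -0.06. Among 4 tested paralogs of the 10 genes none was called: CAPRIN2 was at -0.22, UBAP2 at 0.08 and PABPC4, a paralog of PABPC1, at 0.21, with limma adjusted p of 0.553, 0.785 and 0.477.

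Of the 25 integrated stress response genes, TRIB3, a pseudokinase induced by ATF4, was called higher. It was at 10.2, 9.05 and 12.8 RPKM after CD73 siRNA and at 6.15, 6.53 and 7.95 RPKM in the controls, with a log2 difference of 0.56 and a limma adjusted p of 0.303. The 3 knockdown samples were all above the 3 controls. The median of the list was 0.02, with 13 of its 25 genes higher and 12 lower by mean difference. CHAC1, named here after its values were seen, had the lowest difference of the list, at -0.36. It was at 4.56, 3.74 and 10.5 RPKM after CD73 siRNA and at 9.94, 4.10 and 10.6 RPKM in the controls. Each knockdown sample was below the control of the same number. None of the 29 tested cap-binding and initiation factors was called. When pairs of replicates were taken as a block, the count over all lists was 8 in place of 4 (6 higher and 2 lower of 124, against 4.27% and 3.3% of all genes), with DDIT3, PPP1R15A and EIF3F added among the higher genes and TNRC6A among the lower ones, all named here after their values were seen. DDIT3, the stress-induced factor CHOP, was at 9.97, 22.9 and 8.26 RPKM after CD73 siRNA and at 7.49, 15.5 and 5.21 RPKM in the controls. PPP1R15A, which brings a phosphatase to eIF2, was at 14.2, 36.1 and 10.3 RPKM against 9.94, 31.4 and 7.43 RPKM. For both genes replicate 2 was highest in both groups, and each knockdown sample was above the control of the same number. ATF4, the transcription factor that the response leads to, also named after its values were seen, was at 126, 210 and 154 RPKM against 130, 197 and 124 RPKM, also highest in replicate 2 of both groups, with a log2 difference of 0.12 and a limma adjusted p of 0.865. G3BP2 was not highest in replicate 2 of either group, and a link between its level and those of these genes was not tested.

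**Figure D4:**
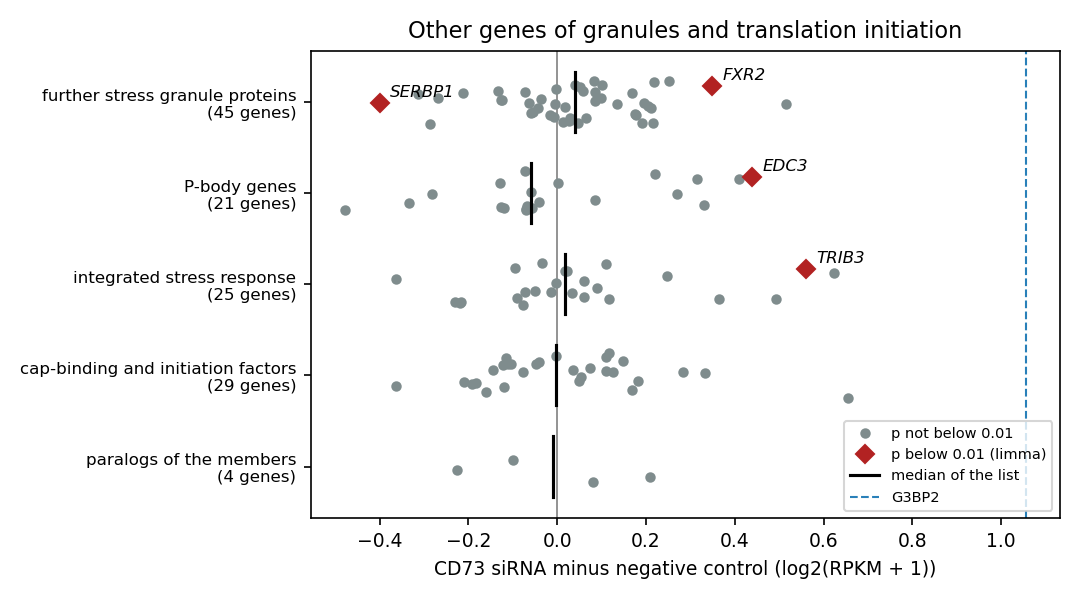
CD73 siRNA minus negative control (x axis, difference of log2(RPKM + 1)) for the 124 tested genes of 5 lists (y axis). Each point is a gene, red diamonds have an unadjusted limma p below 0.01, black lines are the medians of the lists and the dashed line is the difference of G3BP2. The red points are FXR2, SERBP1, EDC3 and TRIB3, and no gene of the lists reaches 1.06, the value of G3BP2.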

How the data were processed

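Total RNA of 6 PANC-1 samples (miRNeasy kit) was sequenced with Illumina libraries, whose strandedness is not given in the sources used here. The submitters' processing notes list bcl2fastq, Bowtie2 2.2.3, HTSeq 0.6.0 and hg38, without role or order. The authors deposited one value per gene and sample, read as RPKM because, multiplied by GENCODE release 29 merged exon length, 95.5% to 95.6% of the values worth under 1000 reads were whole multiples of a single step (tolerance 0.05 reads). For ATXN2 the implied length differed slightly, so its read number is approximate. Reads that fall on overlapping genes, or on opposite strands, may be missing or misassigned.

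The 12527 genes that reached 1 RPKM in 3 or more samples were compared on log2(RPKM + 1) by limma 3.58.1 with a trend (R 4.3.3), with p-values adjusted after Benjamini and Hochberg, tested on simulated data. Adding 1 understates changes of low genes. Exact permutation tests used scipy 1.17.1. The 10 genes and all lists were chosen with earlier results of these data known. Named genes were these 10, NT5E, GAPDH, listed genes with an unadjusted p below 0.01, the 5 profiles most like G3BP2 (1 of them is not reported here), and CAPRIN2, UBAP2 and PABPC4. Genes named after their values were seen are marked as such in the text. Pairs are samples of equal replicate number, and the labels do not say that such samples belong together. Deviations from group means correlated at 0.197, 0.481 and 0.553 within numbers and at -0.439 to -0.006 across them. Deviations within a group sum to 0, so the negative values across numbers are not independent of the positive ones. Nothing says that samples of a group came from separate cultures beyond a mention of separate experiments, so p-values measure the spread between these samples. Alternatives were another pseudocount, no filter, other scalings, the block and leaving out each sample. Counting errors cover counting only.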

Additional observations from a re-analysis of the deposited data

How the results depend on the processing

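The log2 difference of G3BP2 was 1.04 to 1.09 over the other pseudocount, no filter, both scalings and the block, and 0.90 to 1.17 when single samples were left out. Leaving out single samples, the difference was -0.30 to -0.15 for G3BP1, -0.52 to -0.32 for USP10 and -0.26 to -0.21 for TIAL1, and the median of the 10 genes ran from -0.03 to 0.04, so its sign is not settled. The 6 genes within 0.1 of 0 (CAPRIN1, TIA1, UBAP2L, ATXN2, ATXN2L and PABPC1) each changed sign when some single sample was left out, and ATXN2 also under quantile normalization, at -0.001. With no filter on low values TIAL1 was also called lower, so that 3 of the 10 genes were called.

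Counts moved more. The number of genes with an adjusted p below 0.05 was 1, and 0 with a pseudocount of 0.1, with no filter on low values, with quantile normalization or with the replicate block, at 1498, 2088, 1532 and 2925 genes with an unadjusted p below 0.05. With the replicate block 948 genes had p below 0.01 in place of 392, and 8 listed genes in place of 4. The block changed no other call. Leaving out single samples gave 110 (without CD73 siRNA replicate 1) to 791 (without negative control replicate 2) genes with p below 0.01, 0 to 3 with an adjusted p below 0.05, and 0 to 8 listed genes: 0 without CD73 siRNA replicate 1 or negative control replicate 1, 8 without negative control replicate 2 and 1 in the other cases. The cause was not tested.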
